A study of Mus musculus with 19 samples.

Results

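The genes described here, 10 in all, belong to the endoplasmic reticulum (ER) stress response and the integrated stress response; they were chosen by symbol, matched to Ensembl identifiers and read in ribosome-bound mRNA from mouse striatum. They are Atf4, Ddit3, Trib3, Asns, Sesn2, Atf3, Hspa5, Xbp1, Herpud1 and Dnajb9, 10 of the 39017 genes in each library's table. Of the 10, 9 passed the count filter and were tested among 13926 genes; Atf3 did not pass it and is described by its counts. The libraries fall into 4 groups of 4: old D1 and young D1, which are D1 spiny projection neurons of Drd1::EGFP-L10a mice at 2 years and at 42 days, and old D2 and young D2, which are D2 spiny projection neurons of Drd2::EGFP-L10a mice at the same ages. All mice were female and on a background that the labels spell C56BL/6J, and every animal carried the transgene, so no group is free of it. The line names pair the tagged ribosomal protein, EGFP-L10a, with the Drd1 or Drd2 gene, and mRNA held by tagged ribosomes was purified by translating ribosome affinity purification (TRAP), so the values are of mRNA on ribosomes of the tagged cells and not of all RNA in the striatum. A further 3 samples, ribosome profiling of NIH-3T3 fibroblasts with 100 uM paraquat, an siRNA against ABCE1 or a control siRNA, are not analysed here.

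When unfolded proteins build up in the ER, 3 sensors in its membrane act. PERK phosphorylates the translation factor eIF2, which lowers protein synthesis in general but lets ATF4 be made; IRE1 cuts Xbp1 mRNA so that it encodes an active transcription factor; and ATF6 moves to the Golgi, where it is cut into one. The kinases GCN2, PKR and HRI phosphorylate the same site on eIF2 in response to amino acid shortage, double-stranded RNA and other stresses, and the shared outcome is called the integrated stress response. ATF4 raises genes for amino acid supply and, when stress lasts, the transcription factor CHOP, the product of Ddit3. XBP1 and ATF6 raise ER chaperones and the machinery that carries misfolded proteins out of the ER for degradation.

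Totals ran from 27484038 to 70903004 expected counts per library. The label genes matched the groups: Drd1 had 319.8 to 610 TPM (RSEM's abundance, scaled for transcript length and library size) in old D1 and 250 to 320 TPM in young D1, against 53.4 to 91.8 TPM in old D2 and 5.11 to 11.3 TPM in young D2. Drd2 had 2.14 to 48.5 TPM in old D1 and 1.55 to 37.5 TPM in young D1, against 2395 to 5717 TPM in old D2 and 2602 to 3668 TPM in young D2. Drd1 was itself higher in old D2 than in young D2 (log2 fold change 2.95, SE 0.29, adjusted p = 2.86e-05). All 7 D1 neuron markers read, Drd1 among them, had a positive log2 fold change there, and 4 were called, against 0.079% of all genes tested. They summed to 439 to 689 TPM in old D2, against 144 to 170 TPM in young D2. In old D1 they summed to 4830 to 7690 TPM, against 2630 to 3460 TPM in young D1. The 4 old D1 libraries stood apart from the other 12: 10369 to 13705 genes had a count, against 12783 to 15000, fragments averaged 151.2 to 164.4 bases in length, against 170.3 to 195.4, and Gm42418, a long non-coding RNA gene, took 4.45% to 5.41% of counts, against 9.76% to 18.2%. The summed level of 8 astrocyte markers was 240 to 404 TPM in old D1, against 60.2 to 133 TPM in young D1, and 96.1 to 157 TPM in old D2, against 26.1 to 65.4 TPM in young D2. Of these 8, none was at 0 in all libraries of a group. Aldoc carried most of the old D1 sum, with 192 to 369 TPM in old D1 against 25.04 to 57.5 TPM in young D1, and was the only 1 of the 8 called there; 3 of the 8 had a negative log2 fold change, and Aqp4 and Gja1 were at 0 in 3 of the 4 old D1 libraries. The sum of 9 markers of all spiny projection neurons was 6930 to 9180 TPM in old D1, against 9800 to 11800 TPM in young D1, and 11100 to 12200 TPM in old D2, against 13100 to 14600 TPM in young D2. The sum of oligodendrocyte markers was 75.6 to 204 TPM in old D1, against 128 to 295 TPM in young D1, and 251 to 364 TPM in old D2, against 159 to 274 TPM in young D2. Microglia markers summed to 0 to 27.8 TPM in old D1, against 0.85 to 18.7 TPM in young D1, and to 9.43 to 22.8 TPM in old D2, against 3.45 to 7.8 TPM in young D2, where the ages did not overlap. Endothelial and mural markers stayed at or under 20.7 TPM in every library. Cholinergic interneuron markers summed to 0.2 to 2.03 TPM in old D1, against 5.07 to 30.5 TPM in young D1, without overlap, and to 14.3 to 25.6 TPM in old D2, against 18.3 to 32.1 TPM in young D2. Of the 4 cholinergic markers tested, Ache was called lower in old D1 against young D1 (adjusted p = 0.0017) and the other 3 were not called. The index sequences in the labels differ between the ages within each neuron kind, so an age difference and any effect of the index cannot be told apart.

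Of the members, only Hspa5 was called, with a higher level in old D1 than in young D1. Its age changes in D1 and D2 were not shown to differ. No other member passed the test in any of the 5 comparisons, namely old against young within each kind, D1 against D2 within each age, and the contrast of the D1 and D2 age changes. The test was edgeR's quasi-likelihood test on rounded expected counts, with Benjamini-Hochberg adjustment over all 13926 genes and a threshold of 0.05 on the adjusted p. In old D1 against young D1, 1 of 9 members was called, where 10.8% of all genes tested were called, so the members' share was close to that of all genes. In old D2 against young D2, 0 of 9 were called, against 0.079% of all genes; at an unadjusted p under 0.05, 1 member (Atf4) and 801 genes would pass. For the difference of the age changes, 0 of 9 were called, against 1.77% of all genes, and 2 members (Hspa5 and Atf4) and 2353 genes had an unadjusted p under 0.05. For old D1 against old D2, 0 of 9 were called, against 9.6% of all genes, and for young D1 against young D2, 0 of 9, against 0.409%. The median log2 fold change of the 9 members was 0.03 in old D1 against young D1, where that of all genes was -0.06, and 0.28 in old D2 against young D2, where that of all genes was 0.012.

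The precision of the test differed between members. An SE given here is the absolute log2 fold change divided by the square root of edgeR's F statistic. It thus restates the test and does not measure spread apart from it. The SE of a log2 fold change between old D1 and young D1 was 0.29 for Hspa5, 0.33 for Atf4 and 0.41 for Asns, under the median of 0.789 over all genes. It was 0.54 for Dnajb9, 0.58 for Xbp1, 0.80 for Ddit3, 0.82 for Herpud1, 2.10 for Sesn2 and 2.75 for Trib3. A member that missed the threshold is thus not shown to be unchanged, least of all the last 4. Fewer cells of a kind and less RNA per cell cannot be told apart in these pooled preparations.

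**Figure D1:**
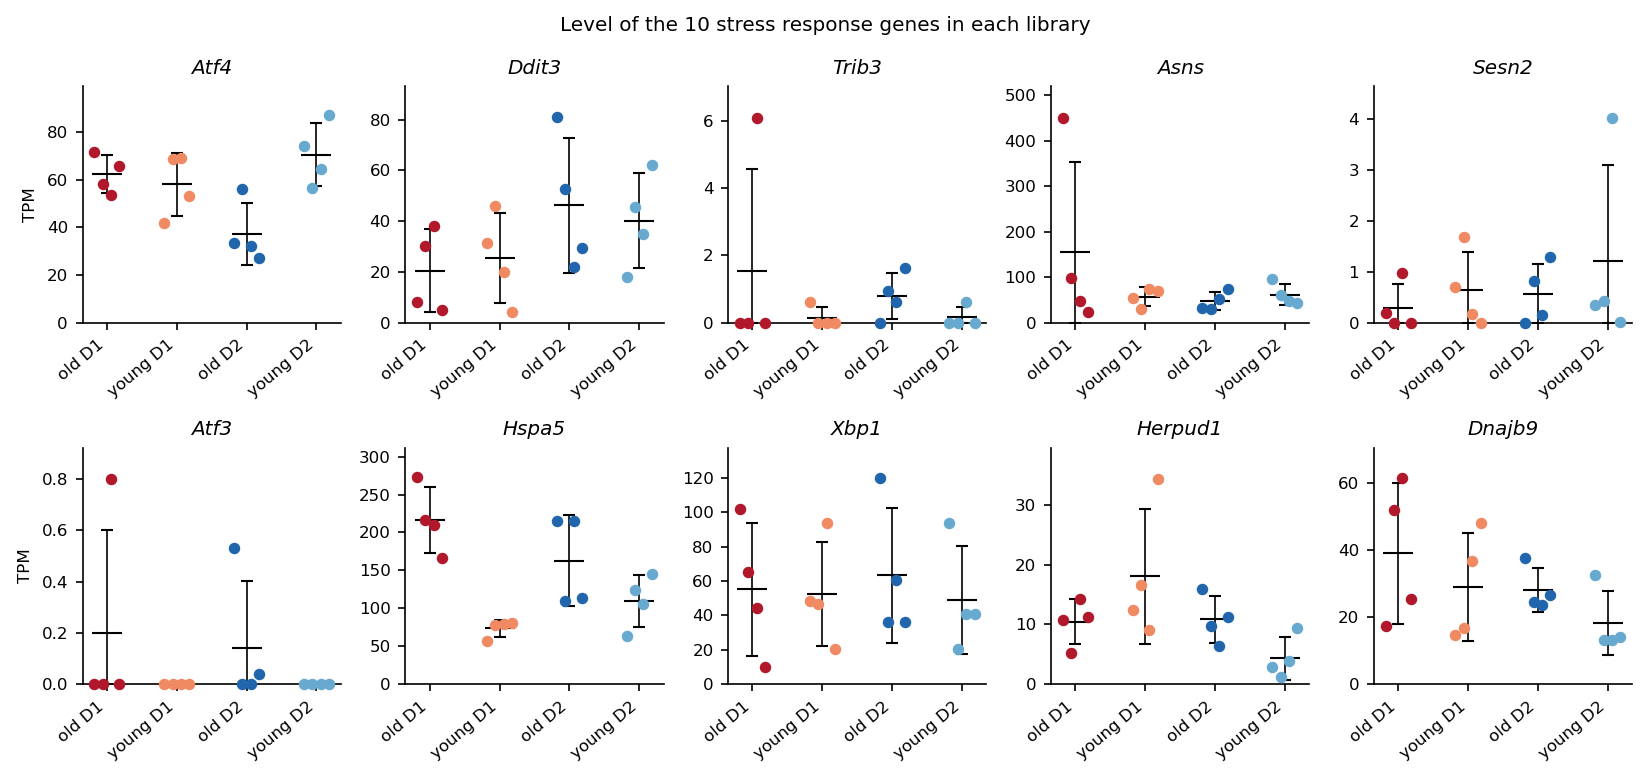
TPM (vertical axis, linear, from 0) of each of the 10 genes in the 16 libraries, by group; points are libraries, and bars are the mean and SD of 4, with the lower end of a bar stopped at 0. In Hspa5 the 4 old D1 points, 166 to 273 TPM, lie above the 4 young D1 points, 57.1 to 80.3 TPM, and in Atf4 the 4 old D2 points lie below the 4 young D2 points.

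**Figure D2:**
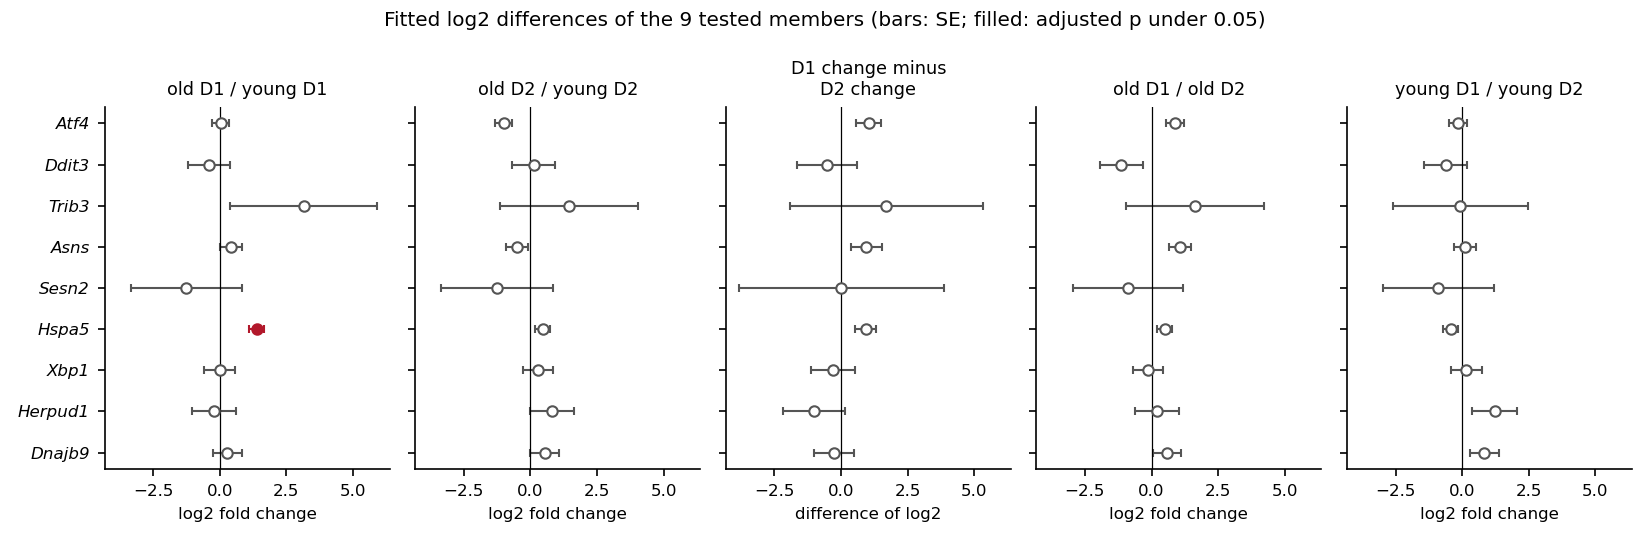
Fitted log2 fold change with its SE (horizontal axis) for the 9 tested members in the 5 comparisons; a filled symbol marks an adjusted p under 0.05. The only filled symbol is Hspa5 in old D1 against young D1, and the widest bars are those of Trib3 and Sesn2, the members with the fewest counts.

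Hspa5 encodes BiP, the main HSP70 chaperone of the ER lumen, which binds unfolded chains and also holds PERK, IRE1 and ATF6 inactive. The gene lies on chromosome 2 from 34771970 to 34777547 on the plus strand of GRCm38, and it was the most abundant member, with a mean of 141 TPM over the 16 libraries, above 91.4% of the genes tested. The TPM values were 273, 216, 209 and 166 in old D1, against 57.1, 77.4, 79.7 and 80.3 in young D1. Every old D1 library was above every young D1 library, as 13.8% of all genes tested did not overlap between these groups in either direction. The log2 fold change was 1.38 (SE 0.29), a 2.6-fold higher level in old D1, with an adjusted p of 0.00564 by edgeR. The isoform Hspa5-201 carried 82.6% to 98.0% of the gene's counts, and alone it had 155 to 243 TPM in old D1 against 44.5 to 75.1 TPM in young D1.

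In D2 neurons the same gene had 215, 110, 215 and 113 TPM in old libraries, against 64.0, 124, 106 and 145 TPM in young ones. Old replicates 1 and 3 lay above all young libraries and replicates 2 and 4 among them, so the groups overlapped. The log2 fold change was 0.46 (SE 0.29, adjusted p = 1). The difference between the 2 age changes was 0.92 on the log2 scale (SE 0.41, adjusted p = 0.251), so the age changes of Hspa5 in D1 and D2 were not shown to differ. Old D1 against old D2 gave 0.49 (SE 0.29, adjusted p = 0.312), and young D1 against young D2 gave -0.43 (SE 0.29, adjusted p = 0.999).

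The old D1 call for Hspa5 held in all 21 alternatives tried, with a log2 fold change between 1.05 and 1.51 and an adjusted p of at most 0.0416. The lowest of these came from removing each library's trend over GC content and transcript length; the Hspa5-201 transcript is 45.6% GC. The shorter fragments, the lower Gm42418 share and the fewer genes with a count of old D1 libraries, given above, move with this result. So do the higher Aldoc and the lower sums of cholinergic and spiny projection neuron markers. The part of all these in it was not tested beyond that trend.

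Atf4 encodes the transcription factor at the centre of the integrated stress response; its control is mainly through translation of its mRNA, of which these data give the amount on tagged ribosomes. It lies on chromosome 15 from 80255184 to 80257541 on the plus strand and had 1 isoform in the tables. The TPM values were 33.2, 56.0, 32.3 and 26.95 in old D2, against 74.2, 56.4, 64.3 and 87.1 in young D2. No old D2 library reached the lowest young D2 library, though old replicate 2 and young replicate 2 differed by little. Of all genes tested, 7.07% did not overlap between these groups. The log2 fold change was -1.01 (SE 0.33) with an adjusted p of 0.563 by edgeR, and no alternative brought the adjusted p below 0.134, so Atf4 was not called. The markers of the other neuron kind, Drd1 among them, summed higher in old D2 than in young D2, as given above. Their part in this value was not tested.

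In D1 neurons Atf4 had 71.4, 58.0, 53.7 and 65.8 TPM in old libraries, against 41.6, 68.7, 68.9 and 53.1 TPM in young ones. The 2 ages overlapped, and the log2 fold change was 0.03 (SE 0.33, adjusted p = 0.974). The age changes differed by 1.04 on the log2 scale (SE 0.46, adjusted p = 0.253). Between the kinds, old D1 against old D2 gave 0.88 (SE 0.33, adjusted p = 0.093). DESeq2 would call this difference (adjusted p = 0.0321), as would the fit with the GC and length trend removed (log2 fold change 1.24, adjusted p = 0.0283). Old D1 and old D2 overlapped in 1 library, and 14.8% of all genes tested did not overlap between these groups. Young D1 against young D2 gave -0.15 (SE 0.33, adjusted p = 0.999), and 0 members were free of overlap there, where 6.35% of all genes were.

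Ddit3, which encodes CHOP and in lasting stress favours cell death, lies on chromosome 10 from 127290774 to 127296288 on the plus strand. Its levels were 8.28, 30.3, 38.1 and 5.03 TPM in old D1, against 31.2, 46.0, 20.02 and 4.35 TPM in young D1. The D2 levels were 80.9, 52.7, 21.9 and 29.6 TPM in old libraries, against 17.98, 45.6, 34.8 and 62.2 TPM in young ones. Libraries of 1 group thus differed more than the group means did, and all groups overlapped. Its log2 fold change was -0.41 (SE 0.80, adjusted p = 0.809) in old D1 against young D1 and 0.12 (SE 0.80, adjusted p = 1) in old D2 against young D2. The difference of these age changes was -0.53 (SE 1.13, adjusted p = 0.88), and old D1 against old D2 gave -1.14 (SE 0.81, adjusted p = 0.417).

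The isoform that RSEM credited with Ddit3 reads differed between libraries. The coding isoform Ddit3-201, of 890 bases, had 0, 19.1, 36.5 and 5.03 TPM in old D1, against 28.3, 45.9, 19.9 and 4.35 TPM in young D1. This isoform had 40.3, 46.1, 21.9 and 19.6 TPM in old D2, against 10.7, 45.6, 33.0 and 15.8 TPM in young D2. On its own this isoform spread as the gene did in young D1, 24.6 ± 17.3 TPM against 25.4 ± 17.6 TPM for the gene (SD, n = 4). Ddit3-202, annotated as a retained intron, had 40.6 TPM in old D2 replicate 1 and 46.5 TPM in young D2 replicate 4, and took 76.6% of the gene's counts in the second of these. Old D1 replicate 1 was credited wholly to Ddit3-203, a coding isoform of 600 bases. The gene shares 68 bases with Mars and 15 with Gm4189 on the opposite strand, and no source used here says whether counting was by strand.

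**Figure D3:**
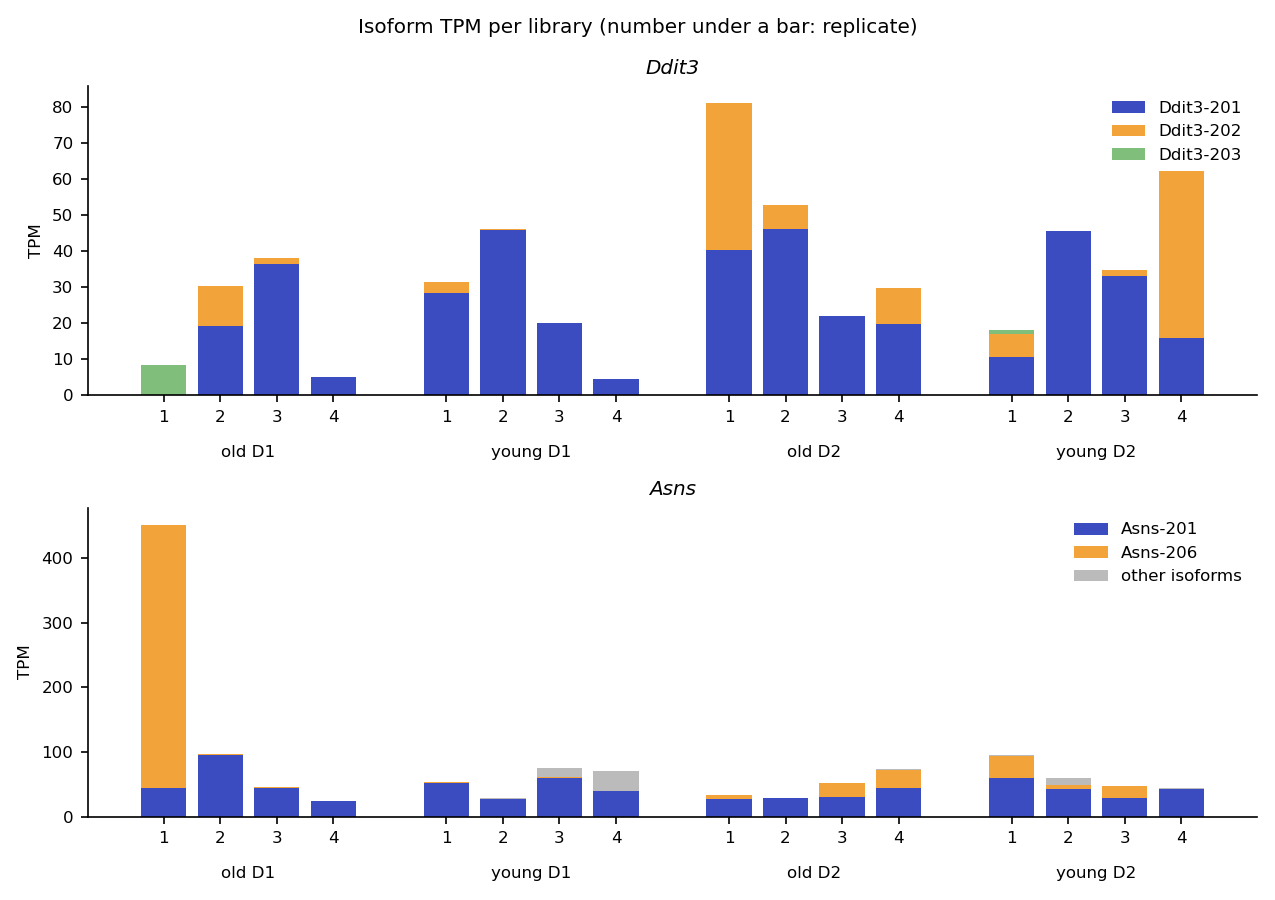
Stacked TPM of the isoforms of Ddit3 (upper) and Asns (lower) in each library, with groups along the horizontal axis and replicate numbers under the bars. The tall Asns bar is old D1 replicate 1, where Asns-206 holds 407 of 451 TPM, and the retained-intron isoform Ddit3-202 holds much of 2 of the D2 bars.

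Asns encodes asparagine synthetase, a standard ATF4 target, and lies on chromosome 6 from 7675169 to 7693254 on the minus strand. Its TPM values were 451, 97.4, 46.5 and 23.9 in old D1, against 53.4, 28.9, 74.99 and 70.0 in young D1. The first old D1 library stood far above the other 15. In that library Asns-206, a processed transcript of 448 bases, took 59.2% of the gene's counts and 407 TPM, while the coding isoform Asns-201 had 43.5 TPM. Asns-201 alone ran from 23.9 to 94.9 TPM in old D1 and from 27.4 to 60.1 TPM in young D1. On gene counts, which the short isoform moves less than TPM, the log2 fold change was 0.43 (SE 0.41, adjusted p = 0.558), and 0.14 without old D1 replicate 1.

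In D2, Asns had 32.9, 29.3, 52.3 and 73.0 TPM in old libraries, against 95.1, 60.1, 48.0 and 43.8 TPM in young ones, with a log2 fold change of -0.52 (SE 0.41, adjusted p = 1). The difference of the age changes was 0.94 (SE 0.58, adjusted p = 0.446). Old D1 against old D2 gave 1.07 (SE 0.41, adjusted p = 0.109). It was called in 1 of 21 alternatives, the fit without old D1 replicate 4 (log2 fold change 1.32, adjusted p = 0.0294). Over the alternatives the value went down to 0.78 and the adjusted p up to 0.257. The part of the Asns-206 counts of old D1 replicate 1 in this comparison was not tested.

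The other ATF4 targets were near the limit of detection. Trib3, a pseudokinase that feeds back on ATF4 and CHOP (chromosome 2, 152337422 to 152344032, minus strand), had a count in 6 of the 16 libraries. It had 6.09 TPM in old D1 replicate 3, from 213 counts, and 0 in the other 3 old D1 libraries, against 0.60 TPM in 1 young D1 library and 0 in the other 3. In D2 it had 0, 0.93, 0.61 and 1.63 TPM in old libraries, from 0, 45, 7 and 21 counts, against 0.62 TPM in 1 young library and 0 in the other 3. Of the 16 libraries, 4 of the 6 with a count were old, and no comparison was called: the log2 fold change was 3.15 (SE 2.75, adjusted p = 0.509) in D1, set by old D1 replicate 3, and 1.44 (SE 2.59, adjusted p = 1) in D2.

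Sesn2, which encodes sestrin 2, an inhibitor of mTORC1 signalling in amino acid shortage (chromosome 4, 132492032 to 132510501, minus strand), had a count in 12 libraries. It had 0.18, 0, 0.97 and 0 TPM in old D1, against 0.69, 1.68, 0.17 and 0 TPM in young D1, and 0, 0.81, 0.15 and 1.28 TPM in old D2, against 0.35, 0.42, 4.02 and 0.02 TPM in young D2. The highest value, in young D2 replicate 3, came from 335 counts. All groups overlapped, with a log2 fold change of -1.26 (SE 2.10, adjusted p = 0.764) in D1 and -1.27 (SE 2.10, adjusted p = 1) in D2.

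Atf3, a bZIP transcription factor that many stresses induce and that nerve injury raises strongly in neurons (chromosome 1, 191170296 to 191218039, minus strand), had a count in 3 of 16 libraries. These were 29 counts (0.8 TPM) in old D1 replicate 3, 20 counts (0.53 TPM) in old D2 replicate 1 and 1 count (0.04 TPM) in old D2 replicate 4. All 8 young libraries were at 0. Summed over a group's 4 libraries, the old D1 level was 11.3 times the floor of 3 counts over the young D1 group. The old D2 level was 7.06 times the same floor over young D2. The floor allows for counting error in the group at 0 alone, not in the 29 or 21 counts set against it. Each of these sums comes almost wholly from 1 library. With no count filter, edgeR gave an adjusted p of 0.207 in D1 and 0.575 in D2. Trib3, Sesn2 and Ddit3 were highest among old D1 libraries in the same replicate 3 that held the Atf3 counts; Sesn2 (0.97 TPM) and Ddit3 (38.1 TPM) there were within the range of young D1. Some markers of other cell types also stood apart in that library. Aqp4 (6.85 TPM), Gja1 (2.48 TPM), P2ry12 (6.68 TPM) and Cldn11 (13.7 TPM) were at 0 in the other 3 old D1 libraries. Rgs5 had 20.33 TPM there against at most 0.59 TPM in those 3. Markers of the same lists also went the other way. Slc1a3 had 3.9 TPM there against 21.31 TPM in replicate 1, and S100b 3.41 TPM against 17.92 TPM in replicate 2. Mog, Cx3cr1 and Csf1r were at 0 there and had a count in another old D1 library. The part of other cell types in the Atf3 and Trib3 counts was not tested.

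Xbp1, whose mRNA IRE1 cuts, lies on chromosome 11 from 5520659 to 5525893 on the plus strand. It had 102, 65.1, 44.0 and 9.76 TPM in old D1, against 48.3, 46.4, 93.6 and 20.6 TPM in young D1. Old D2 libraries had 120, 36.2, 60.7 and 36.2 TPM, against 93.5, 20.5, 40.9 and 40.7 TPM in young D2. Old D1 held both a value above and a value below all young D1 libraries. The log2 fold change was -0.02 (SE 0.58, adjusted p = 0.993) in D1 and 0.28 (SE 0.58, adjusted p = 1) in D2, and neither comparison between the kinds was called (adjusted p = 0.922 in old and 0.999 in young neurons).

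The level of Xbp1 mRNA does not tell whether it has been cut. The 26 bases that IRE1 removes were placed at chr11:5524278-5524303 on the plus strand of GRCm38.p6, as the gap between exons of the spliced RefSeq transcript. They are shown because the deposited isoforms differ in whether they hold them, and capitals mark that gap. The gap opens with a G and a G follows it, so a gap shifted by a base leaves the same spliced sequence. The exact ends of the removed bases are thus not settled by it.
Xbp1: ccGCAGCACTCAGACTATGTGCACCTCTgc
Of the 4 Xbp1 isoforms in the tables, 3 hold all 26 bases and the fourth, Xbp1-202, has no exon over them, being a retained-intron transcript that ends elsewhere. None lacks them by splicing, so the share of spliced Xbp1 could not be read. The coding isoform Xbp1-201 took 94.9% to 100% of the gene's counts in every library, a figure that says nothing of IRE1 activity.

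Herpud1 encodes a ubiquitin-like protein of the ER membrane that helps assemble the complex for ER-associated degradation (chromosome 8, 94386438 to 94395377, plus strand). It had 10.8, 5.29, 14.3 and 11.3 TPM in old D1, against 12.3, 16.6, 9.04 and 34.3 TPM in young D1. In D2 it had 15.99, 9.69, 6.46 and 11.2 TPM in old libraries, against 2.87, 1.15, 3.91 and 9.44 TPM in young ones. The young D2 libraries were the lowest as a group, with 1 of them among the old D2 values. Between the ages it gave a log2 fold change of -0.21 (SE 0.82, adjusted p = 0.914) in D1 and 0.80 (SE 0.83, adjusted p = 1) in D2, and young D1 against young D2 gave 1.22 (SE 0.83, adjusted p = 0.999). TPM of this gene also depends on the isoform credited. The 34.3 TPM of young D1 replicate 4 came from 456 counts, and the 9.04 TPM of replicate 3 from 492. Herpud1-202, of 631 bases, took 0% to 82.9% of the gene's counts, and Herpud1-205, of 1952 bases, 0% to 100%.

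Dnajb9 encodes ERdj4, a J-domain partner of BiP that also restrains IRE1 (chromosome 12, 44205559 to 44210326, minus strand). It had 17.2, 51.9, 61.6 and 25.6 TPM in old D1, against 14.7, 16.9, 36.6 and 48.1 TPM in young D1. Among D2 libraries it had 37.7, 24.6, 23.5 and 26.7 TPM in old ones, against 32.5, 13.2, 13.1 and 14.02 TPM in young ones. In D2, 1 young library lay among the old values and the other 3 below them all. The log2 fold change was 0.28 (SE 0.54, adjusted p = 0.8) in D1 and 0.54 (SE 0.54, adjusted p = 1) in D2. Once the GC and length trend was taken out, the D1 value turned to -0.21.

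By mean TPM, the groups ran for Hspa5 from old D1 (216 ± 43.8, SD, n = 4) through old D2 (163 ± 59.7) and young D2 (110 ± 34.5) to young D1 (73.6 ± 11.1). For Atf4 they ran from young D2 (70.5 ± 13.2) through old D1 (62.2 ± 7.91) and young D1 (58.1 ± 13.2) to old D2 (37.1 ± 12.9). In both orders, as in those of the other 8 members, every pair of neighbours overlapped. Levels of members across the 16 libraries had Pearson correlations, on log2(TPM + 1), from -0.38 (Ddit3 and Asns) to 0.46 (Asns and Xbp1) over the 36 pairs of tested members. Atf4 and its target Ddit3 had -0.17, and Hspa5 and its partner Dnajb9 0.20. These points share groups, depth and base composition, so the values only describe these libraries. Among 9083 genes with a mean of at least 5 TPM, those most like Hspa5 were Lrrn3 (r = 0.873), Serinc1 (0.864) and Atp6ap2 (0.838), and those most like Atf4 were Dynlt3 (0.769), Rgs4 (0.755) and Sult4a1 (0.753), over the same 16 libraries. The nearest gene was Myh7 for Ddit3 (0.891), Recql5 for Trib3 (0.884), Psd3 for Asns (0.835), Ccdc28b for Sesn2 (0.7), Cdc23 for Xbp1 (0.832), Man1c1 for Herpud1 (0.846) and Mier1 for Dnajb9 (0.806).

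Promoters of the members were searched for the elements that these pathways are known to use, in the 250 bases before the RefSeq start (build GRCm38.p6), on both strands. RefSeq gave a promoter for all 10 members. The ER stress element (ERSE), which ATF6 binds with NF-Y, was searched as CCAAT, 9 bases, then CCACG, and is found in 0.113% of 32851 promoters. Its relative ERSE-II was searched as ATTGG, 1 base, then CCACG, and is found in 0.0304% of them. The core of the C/EBP-ATF element, which ATF4 binds, was searched as TGATGNAA and is found in 3.45%, and the core of the XBP1 element (UPRE) was searched as TGACGTG and is found in 1.65%. No 2 of the matches in members overlap. The windows of 30 bases around the matches are given 5′ to 3′ on the gene's strand with the match in capitals, because they show which members hold which element.
Hspa5, ERSE: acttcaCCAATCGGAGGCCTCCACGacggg
Hspa5, UPRE core: ggggcgtagcaaTGACGTGagttgcggagg
Herpud1, ERSE-II: ccgggcgctgATTGGGCCACGttggacact
Herpud1, C/EBP-ATF core: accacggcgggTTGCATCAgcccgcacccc
Asns, C/EBP-ATF core: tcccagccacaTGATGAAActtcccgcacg
Atf3, C/EBP-ATF core: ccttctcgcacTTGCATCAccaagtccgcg
These windows lie at chr2:34772019-34772048 and chr2:34771921-34771950 for Hspa5, chr8:94386367-94386396 and chr8:94386306-94386335 for Herpud1, both plus strand, chr6:7693214-7693243 for Asns and chr1:191183425-191183454 for Atf3, both minus strand. The C/EBP-ATF matches of Herpud1 and Atf3 are on the strand opposite to the gene. RefSeq starts differ from the ends of the GENCODE spans given above. By those spans the windows of the Hspa5 ERSE, Asns and Atf3 lie inside the gene. That of Atf3 is far from the GENCODE start at 191218039 and belongs to an internal RefSeq start. Hspa5, the member called in old D1, was the only one with the ERSE, while Herpud1, which holds ERSE-II and the C/EBP-ATF core, did not pass the test in any comparison. A match is a description of letters, not a site in use, and the 6 members with none may hold such elements in other forms or places.

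The wider pathway was read in 4 lists of genes that exclude the members. In old D2 against young D2 and in young D1 against young D2, no gene of any list was called. In old D1 against young D1, the ATF6 arm and ER chaperones had 4 genes called higher and 1 lower of 19 tested, with a median log2 fold change of 0.15. Eif2 kinases, eIF2 and its regulators had 2 higher and 0 lower of 15 (median 0.20), the ATF4 programme 1 higher and 1 lower of 24 tested of 28 (median -0.20), and the IRE1-XBP1 arm with ER-associated degradation 0 of 20 (median 0.22). These medians stand beside -0.06 for all genes, and the calls beside the 10.8% given above. In old D2 against young D2 the medians were 0.61, 0.13, 0.14 and 0.25 in the same order, beside 0.012 for all genes.

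Among the ER chaperones, Dnajc10, a disulfide reductase that works with BiP in ER-associated degradation, had 65.4, 94.6, 189 and 156 TPM in old D1, against 20.2, 27.6, 38.9 and 17.1 TPM in young D1. The groups did not overlap, and the log2 fold change was 1.503 (SE 0.29, adjusted p = 0.00259), a call that held in all 21 alternatives. In D2 its log2 fold change was 0.79 (SE 0.28, adjusted p = 0.649), and the difference of the age changes was 0.71 (adjusted p = 0.387). Pdia6, a protein disulfide isomerase, had 29.8, 30.5, 63.5 and 75.7 TPM in old D1, against 15.03, 26.3, 12.4 and 13.1 TPM in young D1 (log2 fold change 1.52, SE 0.46, adjusted p = 0.0407), a call kept in 6 of 21 alternatives. Canx, the lectin chaperone calnexin, had 185, 393, 426 and 91.7 TPM in old D1, against 94.0, 148, 126 and 140 TPM in young D1. Old D1 replicate 4 thus lay below every young D1 library. Canx was called at a log2 fold change of 0.75 (SE 0.22, adjusted p = 0.0364) in D1, kept in 11 of 21 alternatives. With the GC and length trend removed its D1 value was 0.21 (adjusted p = 0.685). In D2 Canx had 0.71 (SE 0.22, adjusted p = 0.531). The fourth was Hsp90b1, the ER HSP90 paralogue GRP94, which lies outside the naming rule and was added after its values were seen: its log2 fold change was 0.82 (SE 0.26, adjusted p = 0.0442), a call kept in 7 of 21 alternatives.

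Hyou1, the ER chaperone GRP170 that exchanges nucleotide on BiP, went the other way. It had 5.46, 10.2, 6.84 and 3.85 TPM in old D1, against 25.5, 14.96, 15.9 and 87.7 TPM in young D1. No library of one group reached the other, and the log2 fold change was -2.49 (SE 0.58, adjusted p = 0.00942). In D2 it had 13.9 to 32.0 TPM in old libraries, against 7.6 to 19.0 TPM in young ones, and a log2 fold change of 0.61 (SE 0.55, adjusted p = 1). The difference of the age changes, -3.10 (SE 0.79), was called at an adjusted p of 0.0496. The D1 call was kept in 19 of 21 alternatives: it was lost without young D1 replicate 4 (-1.44, adjusted p = 0.0719) and when the fit held just the 8 D1 libraries (-2.53, adjusted p = 0.0786). The call of the difference was kept in 5 of 20, and without young D1 replicate 4 its value was -2.06 (adjusted p = 0.13).

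**Figure D4:**
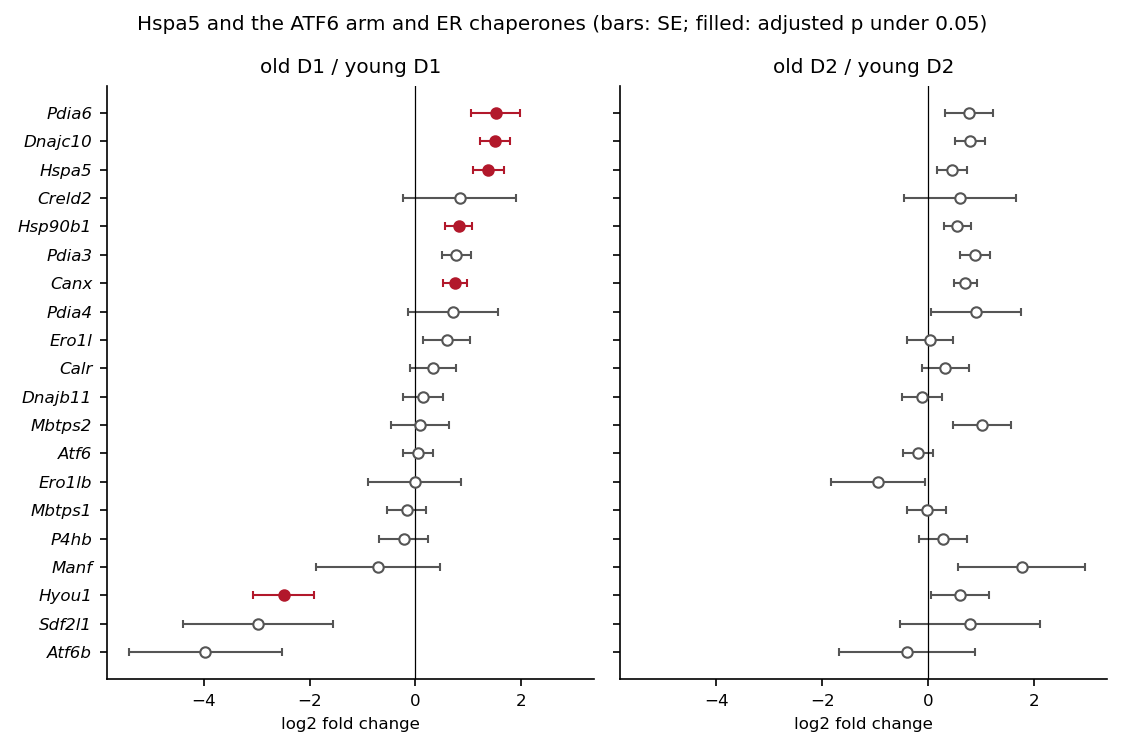
Fitted log2 fold change with its SE (horizontal axis) of Hspa5 and the 19 genes of the ATF6 arm and ER chaperones, in old D1 against young D1 (left) and old D2 against young D2 (right), ordered by the left panel; filled symbols have an adjusted p under 0.05. Pdia6, Dnajc10, Hspa5, Hsp90b1 and Canx are filled on the right of 0 and Hyou1 on the left of it in the D1 panel, and none is filled in the D2 panel.

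The number of ER chaperones called depended on the processing. With the GC and length trend removed 1 was higher and 1 lower, with only the 8 compared libraries in the fit 1 was higher and 0 lower, and with DESeq2 5 were higher and 2 lower. The fragment length, the Gm42418 share and the number of genes with a count of the old D1 libraries move with these calls as with that of Hspa5. So do the Aldoc level and the neuron marker sums, and the part of all these was not tested beyond the trend.

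Of the eIF2 list, Eif2s2 and Eif2s3x, which encode the beta and gamma subunits of eIF2, were called higher in old D1. Eif2s2 had 153, 163, 144 and 181.5 TPM in old D1, against 57.2, 64.6, 72.2 and 40.5 TPM in young D1 (log2 fold change 1.34, SE 0.25, adjusted p = 0.00241), and the call held in all 21 alternatives, at 0.81 with an adjusted p of 0.0444 once the GC and length trend was taken out. It was also called in old D1 against old D2 (log2 fold change 1.16, SE 0.25, adjusted p = 0.00698), where the D2 libraries had 55.2 to 103 TPM, though not with the GC and length trend removed (0.62, adjusted p = 0.117). Eif2s3x had 130 to 149 TPM in old D1, against 55.6 to 127 TPM in young D1 (log2 fold change 0.94, SE 0.20, adjusted p = 0.00482); with the trend removed it was 0.46 with an adjusted p of 0.13. The differences of the age changes, 1.26 and 0.98, each had an adjusted p of 0.0684. The 4 eIF2 kinases, the eIF2 alpha subunit and the phosphatase subunits were not called in any of the 5 comparisons.

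Of the ATF4 programme, Nars, the asparaginyl-tRNA synthetase, had 182, 243, 166 and 289 TPM in old D1, against 97.8, 143, 160 and 101 TPM in young D1. The groups did not overlap, and the log2 fold change was 0.76 (SE 0.23, adjusted p = 0.0404), a call kept in 5 of 21 alternatives. It was also called in old D1 against old D2 (0.80, SE 0.23, adjusted p = 0.0352), a call kept in 11 of 21. Phgdh, the first enzyme of serine synthesis, had no count in any old D1 library, against 0.41, 2.13, 2.64 and 0 TPM in young D1. Summed over the group, the young D1 level was 66.9 times the floor of 3 counts over old D1. That floor allows for counting error in old D1 alone. Phgdh was called lower in old D1 (adjusted p = 0.044 by edgeR, kept in 4 of 21 alternatives), though it was near the limit of detection and at 0 in young D1 replicate 4 too. Atf5, a transcription factor close to ATF4 in its control, had 0.29, 0, 0.96 and 0 TPM in old D1, against 12.4, 19.6, 1.16 and 13.97 TPM in old D2 (log2 fold change -5.14, SE 1.59, adjusted p = 0.0468, kept in 5 of 21). Astrocytes also make Phgdh. Of the 8 astrocyte markers, Aldoc was called higher in old D1 and the other 7 were not called, and their part in the Phgdh value was not tested. Old D1 libraries had fewer genes with a count, as given above. The part of that in the low Phgdh and Atf5 values was not tested.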

How the data were processed

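Ribosome-bound mRNA was purified by TRAP from striatum and cDNA was prepared with NuGEN Ovation V2, per the labels' protocols. Per the submitters' processing notes, reads went through STAR 2.5.1b and RSEM 1.2.20 on mm10. Expected counts in the deposited tables, per gene and isoform, are estimated and were not whole for 20.0% of nonzero gene values. TPM stands beside them as deposited, per the file headers. No source used here states the annotation release or the strandedness.

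Expected counts were rounded, filtered with filterByExpr, scaled by TMM and tested with edgeR 4.0.16 (limma 3.58.1, R 4.3.3; robust quasi-likelihood, 1 mean per group, all 16 libraries), after a check on simulated counts. Alternatives were RLE size factors, no count filter, DESeq2 1.42.0, only the compared groups, offsets that remove each library's trend over GC content and length (97.3% of genes had both), and leaving out each library. Libraries of 1 group are biological replicates by the design text, and the labels pair none of them. Names and positions are from GENCODE M21 (GRCm38), promoters from RefSeq. The members and gene lists were chosen with earlier results of these data known. Besides the members, up to 3 called genes per list, direction and comparison were named by smallest adjusted p, with the 3 genes of highest correlation for each tested member. RSEM divides shared fragments among isoforms by a model, so isoform values are uncertain, and without molecular identifiers bounds cover counting error only.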

Additional observations from a re-analysis of the deposited data

Results flagged for a closer look

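Within groups of 4, 38 pairs of gene and group were looked at for a library far from the other 3 (by Dixon's 95% criterion), and 8 were found; chance flags about 1 in 20 such groups. Of the 8, 6 are in genes with few counts, where 1 library held most of them: Atf3 at 0.8 TPM in old D1 and at 0.53 TPM in old D2, Trib3 at 6.09 TPM in old D1, at 0.6 TPM in young D1 and at 0.62 TPM in young D2, and Sesn2 at 4.02 TPM in young D2. The other 2 are in well-covered genes. Hspa5 was lowest in young D1 at 57.14 TPM, and without that library (replicate 1) its log2 fold change in old D1 against young D1 was 1.25 (adjusted p = 0.0245 by edgeR). Dnajb9 was highest in young D2 at 32.55 TPM. The Asns value of 450.87 TPM in old D1 stands apart by eye but not by this measure.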

How the results depend on the processing

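Hspa5 kept its call in old D1 in all 21 alternatives, and no other member was called in any but 1 comparison. There, in old D1 against old D2, 1 member was called with DESeq2 and 1 after removal of each library's GC and length trend (Atf4 each time), and between 0 and 1 when single libraries were left out (Asns, without old D1 replicate 4). The number of genes called overall moved far more. With DESeq2 it was 2600 for old D1 against young D1, 102 for old D2 against young D2, 1019 for the difference of age changes, 2402 for old D1 against old D2 and 187 for young D1 against young D2. With the trend removed the first was 811, the difference 81 and old D1 against old D2 873; with only the compared groups the counts were 288 for old D1 against young D1, 330 for old D1 against old D2 and 97 for young D1 against young D2. Leaving out single libraries gave 955 (without young D1 replicate 1 or 4) to 2067 (without old D1 replicate 3), 5 (without young D2 replicate 3) to 18 (without old D1 replicate 4), 69 (without old D2 replicate 2) to 682 (without old D1 replicate 3), 711 (without old D2 replicate 2) to 1897 (without old D1 replicate 3), and 39 (without young D1 replicate 1) to 88 (without old D1 replicate 4), in the order of the DESeq2 counts. The causes were not tested.

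Members that were not called changed sign in places. Some had wide errors, as Trib3 and Sesn2, and some a value near 0, as Atf4 in old D1 against young D1 (0.03, SE 0.33). With the trend removed, the log2 fold change in old D1 against young D1 became 0.21 for Ddit3, 0.26 for Xbp1, 0.16 for Herpud1 and -0.21 for Dnajb9, that of Xbp1 in old D1 against old D2 became 0.04, and the difference of age changes of Ddit3 became 0.02. The difference for Sesn2, 0.01 as reported, was -0.05 with RLE size factors, -0.05 with DESeq2 and -0.01 with no count filter. Leaving out single libraries in old D1 against young D1 gave -0.92 to 0.06 for Ddit3, -0.12 to 0.11 for Atf4, -5.75 (without old D1 replicate 3) to 8.88 for Trib3, -0.49 to 0.40 for Xbp1 and -0.002 to 0.76 for Dnajb9. In old D2 against young D2 it gave -0.30 to 0.43 for Ddit3, -2.0 to 0.95 for Sesn2 and -0.20 to 0.82 for Xbp1. The difference of age changes ran from -7.2 to 7.44 for Trib3, -2.23 to 1.2 for Sesn2, -0.85 to 0.16 for Xbp1 and -0.71 to 0.22 for Dnajb9. Old D1 against old D2 ran from -7.26 to 2.22 for Trib3, -0.61 to 0.32 for Xbp1 and -0.09 to 0.40 for Herpud1, and young D1 against young D2 from -5.8 to 5.73 for Trib3, -0.02 to 0.32 for Asns, -2.08 to 1.32 for Sesn2 and -0.25 to 0.70 for Xbp1.

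The share of spliced Xbp1 and its alternatives were not run, since no deposited isoform lacks the removed bases by splicing. Low counts limit Trib3, Sesn2 and Atf3. No paired analysis was possible because the labels give no replicate numbers that groups share; those used here follow record order.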
